A study of Mus musculus with 6 samples.

Results

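The small leucine-rich proteoglycans are secreted matrix proteins built around a horseshoe of leucine-rich repeats. Here the family is 10 genes, found by symbol among the 21671 named genes of the count table: Dcn, Bgn and Aspn (class I), Lum, Fmod, Prelp, Kera and Omd (class II), Ogn (class III) and Podn, a member outside those canonical classes. All 10 were in the table, and 9 passed the filter on low counts. Kera, with 10 reads in all, did not. The family was chosen by the counts of these same libraries, with the increases of Dcn and Lum between the groups known, so the differences of its members stand as a description and support nothing further.

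RNA was sequenced after ribosomal RNA depletion from subcutaneous tumours of CD1 nude mice that had been injected with transformed hepatoblasts carrying TtRMPVIR shST18. This vector makes a short hairpin RNA against the zinc finger transcription factor gene St18 once doxycycline is given. Nude mice lack a thymus and so most T cells. The 3 doxycycline libraries came from tumours taken 4 h after a first oral gavage of 200 mg/ml doxycycline in 300 µl water, and their genotype label is ST18 knockdown. The 3 untreated libraries have the genotype label wild type, although the protocol text describes the same injected cells. Drug, gavage and hairpin therefore cannot be told apart, and no library is described as doxycycline without the hairpin. Nothing says outright that each library is a separate animal, so each p-value reflects the spread among libraries, which may be technical.

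These proteoglycans coat collagen fibrils, set fibril diameter and spacing, and carry chondroitin, dermatan or keratan sulfate chains on many of their cores. Released forms bind growth factors and receptors: decorin restrains TGF-beta, EGFR and MET signalling, and soluble biglycan is a ligand of TLR2 and TLR4. In tumours they are known mainly as products of fibroblasts and other stromal cells of the host. In bulk tissue, more cells of a type and more RNA per cell cannot be told apart, and this holds for every difference below.

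Facts of the whole experiment that touch the family are few. Totals ran from 12090309 to 16169043 counts per library. St18 had 34, 12 and 61 counts in doxycycline libraries 1, 2 and 3, against 12, 23 and 19 counts in untreated libraries 1, 2 and 3, which is a log2 fold change of 1.03 (edgeR adjusted p = 0.298) and no decrease under the knockdown label. Every direction below is between libraries as labelled. Of the liver lineage markers, Krt18 lay, in counts scaled to the library total (CPM), at 49.6 to 71.4 CPM in doxycycline libraries and 50.4 to 87.9 CPM in untreated libraries, while Alb and Ttr were at or near 0 in all 6 libraries and Afp did not exceed 1.35 CPM. Reads of the skin keratins stood out in 1 library of each group: Krt5 was at 25.1 CPM in doxycycline library 1 and 25.8 CPM in untreated library 2, and at most 0.188 CPM in the other libraries.

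Promoter sequence is shown for genes whose estimated changes differed in size. These are the neighbours Aspn, Omd and Ogn, then Fmod, with the largest change of the family, and Bgn, its most abundant gene. Each run is the 250 bases before the annotated start, 5′ to 3′, from RefSeq on build GRCm38.p6. Capitals mark matches to the motifs searched.
Aspn (chr13:49544193-49544442, plus strand): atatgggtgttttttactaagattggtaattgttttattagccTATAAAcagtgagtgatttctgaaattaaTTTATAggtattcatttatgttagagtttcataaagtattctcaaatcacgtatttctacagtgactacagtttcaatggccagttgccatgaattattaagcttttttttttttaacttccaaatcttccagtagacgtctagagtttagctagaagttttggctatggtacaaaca
Omd (chr13:49582212-49582461, plus strand): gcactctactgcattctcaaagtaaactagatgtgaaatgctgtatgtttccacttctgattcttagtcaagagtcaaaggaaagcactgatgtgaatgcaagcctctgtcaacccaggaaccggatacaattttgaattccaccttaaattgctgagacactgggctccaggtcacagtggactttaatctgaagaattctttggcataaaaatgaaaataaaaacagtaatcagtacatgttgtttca
Ogn (chr13:49607765-49608014, plus strand): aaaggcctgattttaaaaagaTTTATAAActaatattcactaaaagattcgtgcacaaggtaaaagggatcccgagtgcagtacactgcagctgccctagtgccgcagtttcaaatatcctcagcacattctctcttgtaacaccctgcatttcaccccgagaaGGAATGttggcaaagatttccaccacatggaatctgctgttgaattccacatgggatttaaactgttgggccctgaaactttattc
Fmod (chr1:134037004-134037253, plus strand): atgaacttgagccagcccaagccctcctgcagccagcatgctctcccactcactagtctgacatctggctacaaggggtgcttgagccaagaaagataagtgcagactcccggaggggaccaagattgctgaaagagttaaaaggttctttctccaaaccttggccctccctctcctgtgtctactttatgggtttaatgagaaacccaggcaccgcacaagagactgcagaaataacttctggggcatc
Bgn (chrX:73483351-73483600, plus strand): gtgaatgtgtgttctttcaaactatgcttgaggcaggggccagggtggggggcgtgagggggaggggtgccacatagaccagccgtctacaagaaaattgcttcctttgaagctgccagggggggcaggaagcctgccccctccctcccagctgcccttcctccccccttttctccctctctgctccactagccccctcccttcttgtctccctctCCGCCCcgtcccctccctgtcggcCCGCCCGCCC
Of the 10 genes, 8 had a promoter in the table used, all but Dcn and Lum. Motifs were searched on both strands: the TATA box TATAAA, the GC box GGGCGG, the AP-1 motif TGANTCA, the TEAD motif GGAATG and the SMAD motif CAGACA. Over 27025 promoters of the same length, TATAAA occurs in 3504, GGGCGG in 32.9%, TGANTCA in 6.87%, GGAATG in 12.6% and CAGACA in 17.1%. Aspn held TATAAA starting 207 and 178 bases before its start, the second on the reverse strand. Ogn held overlapping matches on both strands starting 229 and 227 bases before its start, and GGAATG at 86 bases. Bgn held 3 GC boxes on the reverse strand, at 34, 10 and 6 bases, and the matches at 10 and 6 bases overlap. The windows of Omd and Fmod held none of the 5 motifs. Promoter GC content was 30.0% for Aspn, 38.4% for Omd, 42.0% for Ogn, 51.2% for Fmod and 64.4% for Bgn, against a median of 52.0% over all promoters.

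Of the 9 genes tested, 6 were called higher in the doxycycline libraries (Dcn, Lum, Fmod, Prelp, Aspn and Ogn) and none lower. Of 14809 genes tested in all, 2.84% were called higher and 2.18% lower, 5.02% in either direction. The median log2 fold change was 1.32 over these 9 genes and 0.01 over all genes tested. A call here is an adjusted p under 0.05 in edgeR's quasi-likelihood test over all genes. In that fit the edgeR adjusted p of the 6 ran from 0.00174 (Lum) to 0.0393 (Prelp). None of the 9 had an unadjusted p under 0.05 in the downward direction, in edgeR or in DESeq2. Over all genes, 1939 of 14809 had an unadjusted edgeR p under 0.05 upward and 1596 downward. DESeq2 called 877 genes higher and 790 lower of 20431. CPM did not overlap between the groups for 7 of the 9 (the 6 called and Bgn), as for 29.6% of all genes tested, 15.2% being higher with doxycycline. The plot of levels by library shows the spread.

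**Figure D1:**
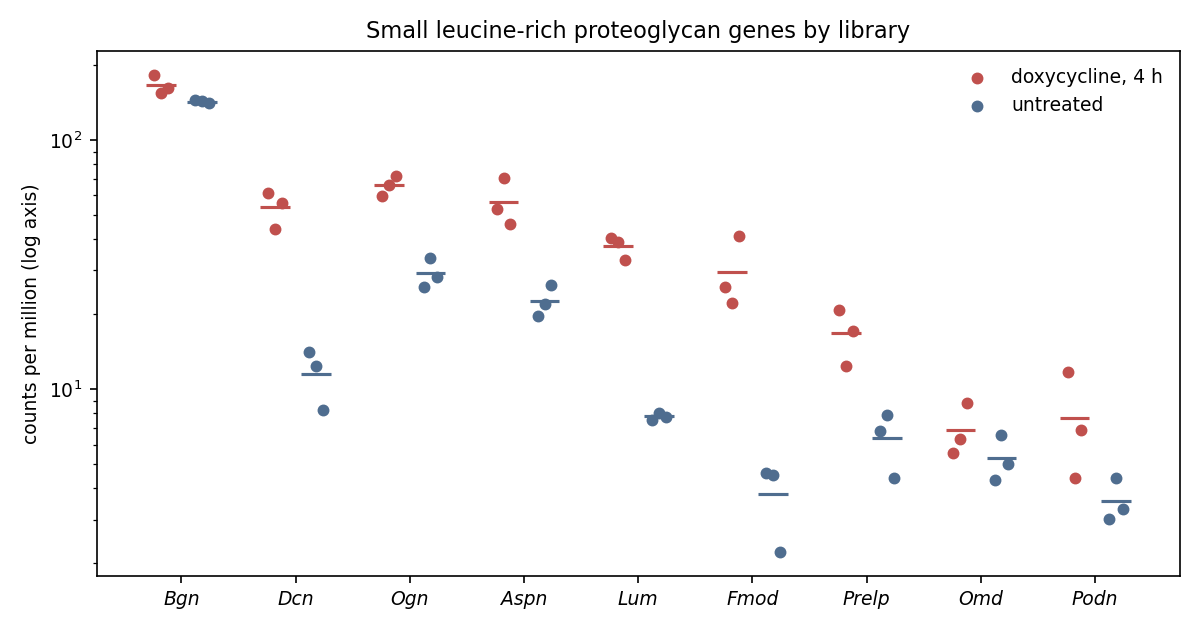
Level of 9 family genes in each library, in CPM on a log axis; points are libraries, bars are group means (n = 3 each), red for doxycycline and blue for untreated. Kera, with too few reads, is not drawn. Dcn, Lum and Fmod show the widest gaps, while Omd overlaps between the groups and Podn touches at its edge.

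Among the class I genes, Dcn and Aspn rose, and Bgn was not called. Dcn, which encodes decorin, was at 61.6, 43.8 and 55.9 CPM in doxycycline libraries 1, 2 and 3, against 14.1, 12.4 and 8.23 CPM in untreated libraries 1, 2 and 3. Every doxycycline library lay above every untreated one, and the log2 fold change came to 2.22 (SE 0.22, 95% interval 1.71 to 2.73), a 4.65-fold difference. Aspn encodes asporin, which carries a stretch of aspartates and restrains TGF-beta and BMP signalling. It was at 52.8, 70.2 and 46.3 CPM in doxycycline libraries 1, 2 and 3 and 19.7, 21.9 and 26.3 CPM in untreated libraries 1, 2 and 3. The groups did not overlap, and the log2 fold change came to 1.32 (SE 0.19, 95% interval 0.89 to 1.74).

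Bgn, which encodes biglycan, was by far the most abundant gene of the family in both groups. Its level was 183, 154 and 161 CPM in doxycycline libraries 1, 2 and 3, against 145, 143 and 141 CPM in untreated libraries 1, 2 and 3. The groups did not overlap, yet the difference was small, with a log2 fold change of 0.22 (95% interval 0.03 to 0.41), and was not called (edgeR adjusted p = 0.152). Within a library, the ratio of Dcn to Bgn counts was 0.322 ± 0.0336 in doxycycline libraries and 0.0808 ± 0.0200 in untreated libraries (SD, n = 3 each).

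The class II genes ranged from the largest change of the family to one too low to test. Fmod encodes fibromodulin, which guides collagen crosslinking and is abundant in tendon. Its level was 25.7, 22.3 and 41.1 CPM in doxycycline libraries 1, 2 and 3, against 4.61, 4.53 and 2.23 CPM in untreated libraries 1, 2 and 3. Each group held a library apart from its other two, doxycycline 3 on the high side and untreated 3 on the low side, and the lowest doxycycline value was still far above the highest untreated one. Its log2 fold change was 2.97 (SE 0.35, 95% interval 2.16 to 3.77), a 7.83-fold difference, and 0.527% of genes tested had a larger one.

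Lum encodes lumican, the keratan sulfate proteoglycan that orders the fibrils of cornea and skin. It was at 40.4, 39.2 and 32.9 CPM in doxycycline libraries 1, 2 and 3, against 7.56, 8.05 and 7.76 CPM in untreated libraries 1, 2 and 3. The groups lay far apart, with the 3 untreated libraries close to one another, and the log2 fold change came to 2.26 (SE 0.17, 95% interval 1.89 to 2.64). The counts of Dcn and Lum kept a like ratio: Dcn over Lum was 1.45 ± 0.297 in doxycycline libraries and 1.49 ± 0.402 in untreated libraries (SD, n = 3 each).

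Prelp encodes a proteoglycan-like protein that binds heparan sulfate and anchors basement membranes to collagen. Its level was 20.9, 12.4 and 17.2 CPM in doxycycline libraries 1, 2 and 3 and 6.81, 7.92 and 4.39 CPM in untreated libraries 1, 2 and 3. The groups did not overlap, and the log2 fold change came to 1.40 (SE 0.30, 95% interval 0.71 to 2.08). Prelp sits nearest to the threshold of the 6 called genes. Omd, for osteomodulin of mineralised tissue, was at 5.53, 6.32 and 8.78 CPM in doxycycline libraries 1, 2 and 3, against 4.31, 6.54 and 4.99 CPM in untreated libraries 1, 2 and 3. Its groups overlapped, and the log2 fold change of 0.38 had a 95% interval of -0.30 to 1.07. Kera, for keratocan of the cornea, had 1, 4 and 4 counts in doxycycline libraries 1, 2 and 3, against 1, 0 and 0 counts in untreated libraries 1, 2 and 3. The ratio of its pooled counts per total was 9.38, with a 95% exact interval of 1.30 to 411 that covers counting error only.

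Ogn and Podn stand for the remaining classes. Ogn encodes osteoglycin, also called mimecan, and was at 59.5, 66.0 and 72.0 CPM in doxycycline libraries 1, 2 and 3, against 25.7, 33.7 and 28.3 CPM in untreated libraries 1, 2 and 3. The groups lay well apart, and the log2 fold change came to 1.17 (SE 0.14, 95% interval 0.86 to 1.48). Podn encodes podocan, which restrains the growth of vascular smooth muscle cells. It was at 11.7, 4.40 and 6.84 CPM in doxycycline libraries 1, 2 and 3 and 3.03, 4.40 and 3.31 CPM in untreated libraries 1, 2 and 3. Doxycycline library 2 met untreated library 2, and the log2 fold change of 1.09 (95% interval 0.19 to 1.99) was not called (edgeR adjusted p = 0.142).

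The calls depended on which libraries were kept. Dcn and Lum were called under each of 12 other fits, including each that left out 1 library. Fmod was lost without untreated library 1 (edgeR adjusted p = 0.0587), Ogn without untreated library 1 or 3, and Aspn without any 1 of the 3 untreated libraries. Prelp was called without doxycycline library 2 and lost without any other. With untreated library 1, 2 or 3 left out in turn, the family had 2, 4 and 3 genes called higher, where the genome had 11, 27 and 14. Podn was called without doxycycline library 2 (edgeR adjusted p = 0.0256). No log2 fold change of the 9 genes changed sign in any of them.

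The make-up of the family differed between the groups. Summed per kilobase of transcript, it came to 184 ± 8.97 CPM per kb in doxycycline libraries and 96.4 ± 3.30 CPM per kb in untreated libraries (SD, n = 3 each), a ratio of 1.91. Without Bgn the sum was 116 ± 3.35 CPM per kb in doxycycline libraries and 37.4 ± 3.02 CPM per kb in untreated libraries, a ratio of 3.09. The share of Bgn was 36.2% to 39.2% in doxycycline libraries and 59.2% to 62.5% in untreated libraries. Dcn took 14.2% to 18.1% in doxycycline libraries and 5.01% to 8.37% in untreated libraries, and Lum took 7.31% to 9.12% in doxycycline libraries and 3.23% to 3.39% in untreated libraries. Shares of Aspn, Prelp, Ogn, Omd, Podn and Kera overlapped between the groups.

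**Figure D2:**
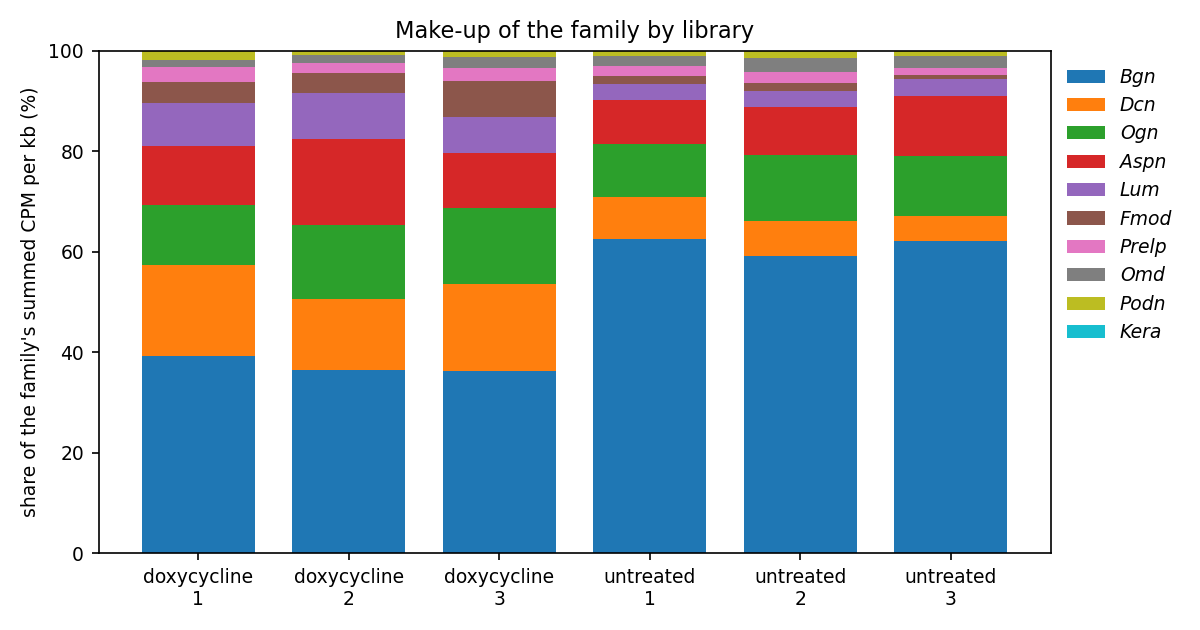
Share of each gene in the family's summed level per kilobase, in percent, for each library, with doxycycline libraries on the left and untreated ones on the right. Bgn holds 36.2% to 39.2% in doxycycline libraries and 59.2% to 62.5% in untreated libraries, and the bands of Dcn, Lum and Fmod are wider in doxycycline libraries.

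By level per kilobase the order of the genes differed too. In doxycycline libraries Bgn (68.8 CPM per kb) was followed by Dcn (30.6), Ogn (25.6) and Aspn (24.2), then Lum (15.3), Fmod (9.51), Prelp (4.65), Omd (3.06), Podn (2.42) and Kera. Dcn, Ogn and Aspn overlapped their neighbours in that order, as did Prelp, Omd and Podn. In untreated libraries Bgn (59.0 CPM per kb) was followed by Ogn (11.4), Aspn (9.73), Dcn (6.58), Lum (3.18), Omd (2.35), Prelp (1.76), Fmod (1.21), Podn (1.13) and Kera. There Ogn overlapped Aspn, and the genes from Omd to Podn each overlapped the next. Fmod held place 6 in doxycycline libraries and place 8 in untreated libraries, and Dcn held place 2 in doxycycline libraries and place 4 in untreated libraries.

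Most of the family lies in 3 tandem clusters, and on chromosomes 13 and 1 the estimated change differed in size between neighbours. On chromosome 13 the order is Ecm2, Aspn, Omd, Ogn. Omd, between 2 genes called higher, showed a fold change whose interval includes 0, and Ecm2, which encodes a related leucine-rich matrix protein, rose (log2 fold change 0.88, SE 0.18, edgeR adjusted p = 0.0341), a call lost with offsets for GC content and length (edgeR adjusted p = 0.0711). The interval of Omd (-0.30 to 1.07) overlapped those of Aspn (0.89 to 1.74) and Ogn (0.86 to 1.48). Within a library the ratio of Ogn to Omd counts was 10.7, 10.4 and 8.20 in doxycycline libraries 1, 2 and 3. In untreated libraries 1, 2 and 3 it was 5.96, 5.15 and 5.66, with no overlap. The ratio of Aspn to Omd was less clear, at 9.55, 11.1 and 5.271 in doxycycline libraries 1, 2 and 3. In untreated libraries 1, 2 and 3 it was 4.58, 3.36 and 5.270, so doxycycline library 3 nearly equalled untreated library 3. The ratio of Aspn to Ogn overlapped, at 0.865 ± 0.212 in doxycycline libraries and 0.783 ± 0.140 in untreated libraries (SD, n = 3 each). Aspn, Omd and Ogn lie inside the centromere protein gene Cenpp on the opposite strand, which had a log2 fold change of 0.39 and was not called (edgeR adjusted p = 0.201). Exons of Aspn and Cenpp share 7 bases. The library kit named in the labels does not mark strand, so reads of unspliced Cenpp RNA that cross exons of the 3 genes cannot be told apart from theirs.

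On chromosome 10 Dcn and Lum are adjacent, followed by Kera and Epyc, which encodes epiphycan of cartilage. Dcn and Lum both rose, with log2 fold changes of 2.22 and 2.26, while Epyc had 0, 9 and 4 counts in doxycycline libraries 1, 2 and 3 and 1, 2 and 1 counts in untreated libraries 1, 2 and 3. On chromosome 1 the order is Optc, Prelp, Fmod. The ratio of Fmod to Prelp counts was 1.23, 1.80 and 2.39 in doxycycline libraries 1, 2 and 3 and 0.678, 0.571 and 0.508 in untreated libraries 1, 2 and 3, so Fmod differed by more than its neighbour. An antisense gene covers 9.68% of the exonic bases of Prelp, and its reads cannot be told apart from those of Prelp. Optc, for opticin of the eye, had a log2 fold change of 0.64 with a 95% interval of -0.69 to 1.97.

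**Figure D3:**
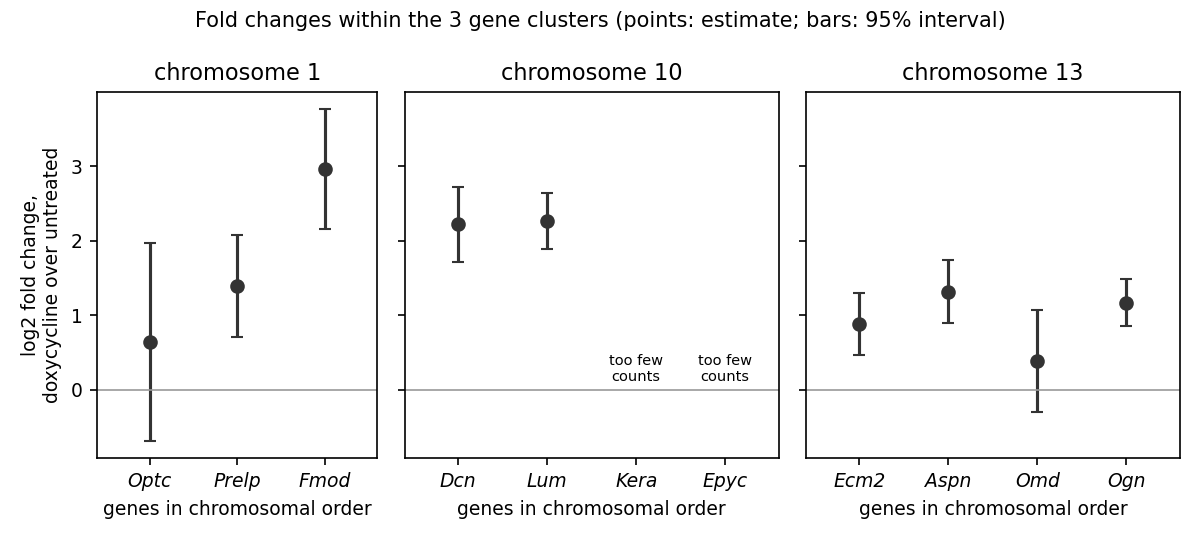
Log2 fold change, doxycycline over untreated, of the genes of 3 clusters in their order on the chromosome; points are edgeR estimates and bars 95% intervals (n = 3 libraries per group). Omd has the lowest estimate of its cluster, with an interval that overlaps the others. Dcn and Lum lie close together, and Kera and Epyc had too few counts.

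Among other genes of the superfamily, 1 was called. Of 8 further leucine-rich proteoglycan genes, 7 were tested, and Ecm2 was higher and none lower. Their median log2 fold change was 0.26. Ecm2 was at 33.1, 40.9 and 36.8 CPM in doxycycline libraries 1, 2 and 3 and 15.8, 23.8 and 20.5 CPM in untreated libraries 1, 2 and 3. Podnl1, the closest relative of Podn, had a log2 fold change of 1.06 (edgeR adjusted p = 0.107), and Tsku, for tsukushi, one of -0.15 (edgeR adjusted p = 0.451).

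Several collagens that these proteoglycans bind or sit beside were called higher. Of 16 collagen chain genes tested, 4 were called higher and none lower, with a median of 0.62. DESeq2 called 6 higher, and 12 had an unadjusted edgeR p under 0.05 upward and 0 downward. Over all genes these unadjusted counts were 1939 and 1596 of 14809. Col11a1, a minor chain that sets fibril diameter, had 112, 95 and 196 counts in doxycycline libraries 1, 2 and 3 against 16, 7 and 6 counts in untreated libraries 1, 2 and 3 (log2 fold change 3.79, edgeR adjusted p = 0.0105). The fibril-associated Col12a1 (2.77, adjusted p = 0.0154) and Col14a1 (1.55, adjusted p = 0.0164), a decorin-binding collagen, rose too in edgeR's fit, as did Col5a2 (0.91, adjusted p = 0.0241). The main chains of collagens I and III were not called. Col1a1 had a log2 fold change of 0.67 (edgeR adjusted p = 0.0747), Col1a2 one of 1.36 (edgeR adjusted p = 0.142) and Col3a1 one of 0.17 (edgeR adjusted p = 0.141). Nor were the minor chains Col5a1 (0.03), Col5a3 (0.03) and Col11a2 (0.41) or the fibril-associated Col16a1 (0.19). Col2a1 (1.81), Col9a3 (1.05), Col6a2 (0.58) and Col6a1 (0.20), like Col1a1 and Col3a1, did not overlap between the groups, yet were not called. With the called chains, 10 of the 16 did not overlap, against 29.6% of all genes tested. Col9a2 (0.45) overlapped and was not called.

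The lists of enzymes that build the sugar chains had medians near that of all genes, with members on both sides. Of 21 genes of chondroitin and dermatan sulfate synthesis, 1 was called higher and none lower, and the median was 0.00. It was Dsel, a relative of the dermatan sulfate epimerase, at 0.72 (edgeR adjusted p = 0.023). Chsy3, a chondroitin synthase, was at 1.83 (edgeR adjusted p = 0.125) and B3galt6, an enzyme of the linker sugars, at -0.49 (edgeR adjusted p = 0.172). Of 12 keratan sulfate synthesis genes none was called in edgeR or in DESeq2, 0 had an unadjusted edgeR p under 0.05 upward and 2 downward, and the median was -0.07. The smallest p among them was that of the galactosyltransferase B4galt3, at -0.33 (edgeR adjusted p = 0.147). Without doxycycline library 2, 1 of the keratan sulfate genes was called higher and 2 lower, among them B4galt3 (-0.45, edgeR adjusted p = 0.0205).

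Among 22 receptors and growth factor partners 2 were called higher and none lower, with a median of 0.16. Tgfb2 was at 36.6, 26.3 and 44.8 CPM in doxycycline libraries 1, 2 and 3, against 15.5, 17.7 and 13.6 CPM in untreated libraries 1, 2 and 3 (edgeR adjusted p = 0.0241). Tgfb3 had a log2 fold change of 0.48 (edgeR adjusted p = 0.0323) and Tgfb1 one of -0.42 (edgeR adjusted p = 0.22). The biglycan receptors Tlr2 (-0.20) and Tlr4 (0.25) were not called. Of 14 proteases that act on these proteoglycans, Adamts5, an aggrecanase, was higher at 1.12 (edgeR adjusted p = 0.0273) and none was lower, where DESeq2 called 2 lower. Bmp1, which trims the biglycan propeptide, was at 0.00, and the list median was -0.06. Of 23 other proteoglycan core protein genes, 3 were called higher and 1 lower, with a median of 0.01. The largest was the glypican Gpc3 (3.37, edgeR adjusted p = 0.0261), with 78, 20 and 91 counts in doxycycline libraries 1, 2 and 3 against 5, 8 and 6 counts in untreated libraries 1, 2 and 3, followed by Vcan, for versican (1.35, adjusted p = 0.0315), and the syndecan Sdc2 (0.74, adjusted p = 0.0315). The gene called lower was Agrn, for agrin of basement membranes (-0.34, edgeR adjusted p = 0.0409). The 13 calls in these 7 lists, 12 higher and 1 lower, depended on the libraries and on the model. Leaving out 1 untreated library kept at most 1 of them, Col11a1 without library 1, Col14a1 without library 2 and none without library 3. Without doxycycline library 1, 3 were kept, and without doxycycline library 3, 2. With offsets for GC content and length, Ecm2 (edgeR adjusted p = 0.0711), Dsel (0.0587), Adamts5 (0.0555), Vcan (0.0640), Sdc2 (0.0588) and Agrn were no longer called. Limma-voom lost Col12a1, Gpc3 and Vcan, and edgeR with no filter on low counts lost Col12a1 and Vcan.

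Among the genes whose pattern over the 6 libraries was most like the mean standardised profile of the 9 genes were Rnf150, Cpped1, Cenpf and Nov. Their Pearson r was 0.994 to 0.998 among 14471 genes compared, a description in which all of them share the difference between the groups. Of these, the matricellular gene Nov had the largest log2 fold change, 1.78 (edgeR adjusted p = 0.021), followed by Rnf150 at 1.04 (edgeR adjusted p = 0.00834). Within groups the 9 genes did not move as a block. Over the 36 pairs, the correlation of deviations from the group mean was positive for 20, with a median of 0.07 (6 libraries that share depth and tissue makeup). Ogn and Omd deviated together (0.95), as did Prelp and Dcn (0.91), whereas Fmod and Aspn deviated in opposite directions (-0.86).

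Some markers of fibroblasts and most tested markers of skeletal muscle were called higher in the same libraries. Of 11 fibroblast markers tested, 3 were called higher (Postn, Mfap5 and Dpt) and none lower, and the median log2 fold change was 0.72. Pi16 lay the other way without overlap, at 23.8, 11.2 and 24.3 CPM in doxycycline libraries 1, 2 and 3 and 36.3, 34.0 and 35.0 CPM in untreated libraries 1, 2 and 3 (log2 fold change -0.83, edgeR adjusted p = 0.114). DESeq2 called 5 fibroblast markers higher and 1 lower. Their summed level was 1506 to 1739 CPM in doxycycline libraries and 1120 to 1144 CPM in untreated libraries, and none was at 0. Of 15 skeletal muscle markers, 9 were called higher and none lower, with a median of 3.42. The muscle sums were 1514, 3026 and 445 CPM in doxycycline libraries 1, 2 and 3, against 83.6, 235 and 101 CPM in untreated libraries 1, 2 and 3. Within the doxycycline group Fmod, Ogn and Omd were highest where the muscle sum was lowest (library 3). Aspn was highest where the sum was highest (library 2). In the untreated group the sum was lowest in library 1, where Fmod was highest by a small margin. Untreated Aspn was highest in library 3, not in library 2 with the highest sum. Ogn and Omd went the other way than in the doxycycline group. In untreated libraries both were highest in library 2, with the highest sum, and lowest in library 1, with the lowest.

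Of 4 tendon markers tested, Thbs4 alone was called higher, and sums were 70.0 to 137 CPM in doxycycline libraries and 46.0 to 56.2 CPM in untreated libraries. The median log2 fold change of the 4 was 0.71, and 3 had an unadjusted edgeR p under 0.05 upward and 0 downward. Scx and Comp, not called, lay higher with doxycycline without overlap, as did Thbs4. Tnmd, the defining tendon marker, was too low to test and did not exceed 0.687 CPM. Keratinocyte marker sums were 119, 7.83 and 9.16 CPM in doxycycline libraries 1, 2 and 3, against 10.4, 99.3 and 9.72 CPM in untreated libraries 1, 2 and 3. Podn, Prelp and Lum were highest within each group in those same libraries, doxycycline 1 and untreated 2, Lum by a small margin. With those libraries left out of both groups, an alternative chosen after seeing the data, Podn was at 0.81 and Prelp at 1.39. Dcn was then at 2.15, Lum at 2.22 and Fmod at 3.20. No gene of the genome passed in that edgeR fit of 2 against 2, where 1294 genes had an unadjusted p under 0.05 upward and 1317 downward, 6 of the 9 family genes among the upward ones. The part of any of these cell types in the family's differences was not tested.

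**Figure D4:**
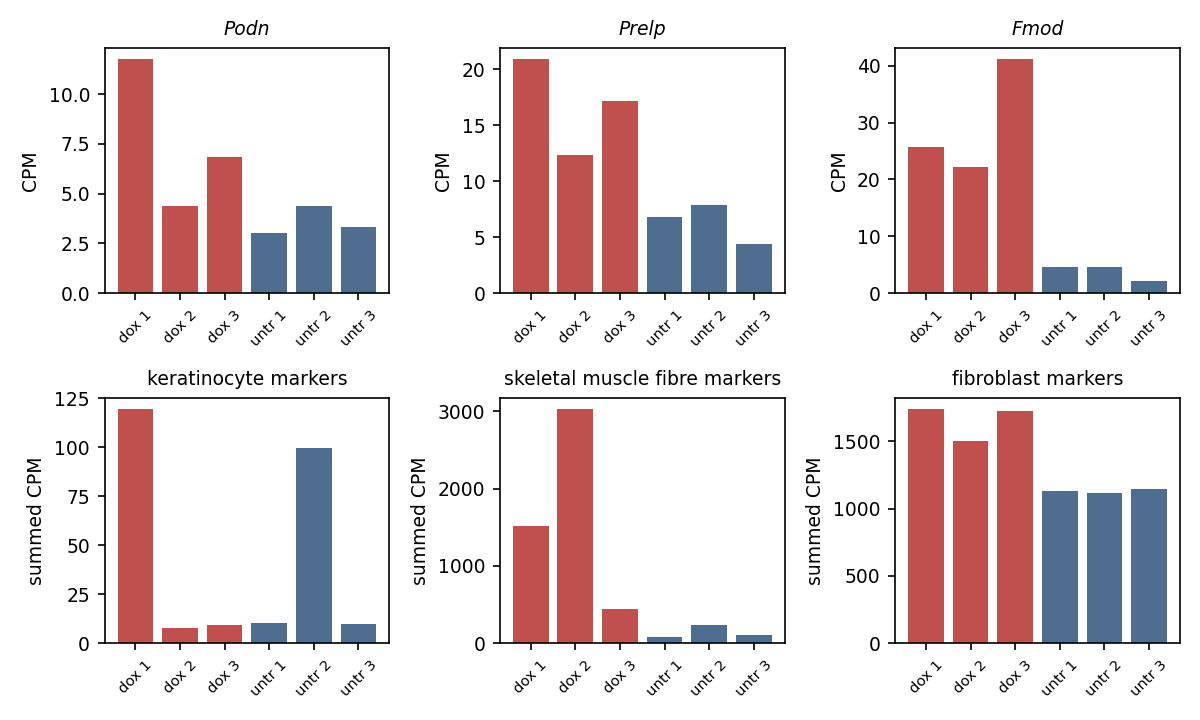
CPM of Podn, Prelp and Fmod (top) and summed CPM of marker genes (bottom) in each library, doxycycline libraries 1 to 3 in red and untreated libraries 1 to 3 in blue. Keratinocyte markers reach 119 CPM in doxycycline library 1 and 99.3 CPM in untreated library 2, the libraries where Podn and Prelp, and also Lum (not drawn), are highest in their group.

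Among the other marker lists, those without a call in edgeR were 4 cartilage and bone markers (median 1.12), 2 adipocyte markers (0.41), 7 smooth muscle and pericyte markers (0.48), 4 Schwann cell markers (0.20), 2 keratinocyte markers (-0.32) and 6 liver lineage markers (0.05). In DESeq2, 1 of the cartilage and bone markers and 2 of the smooth muscle and pericyte markers were called higher, and in edgeR 2 of each had an unadjusted p under 0.05 upward, against 0 in the other 4 of these lists. Of 9 macrophage markers 3 were higher in edgeR and 4 in DESeq2 (median 0.37), and of 7 endothelial markers 2 in both (0.42). Of 5 neutrophil markers 1 was lower in edgeR and 4 in DESeq2 (median -1.42). All 5 lay without overlap between the groups, as did 29.6% of all genes tested in either direction. None of the marker calls was kept without untreated library 1, 2 or 3.

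Base composition also varied among the family. Transcripts of Aspn, Omd and Ogn have a GC content of 34.3%, 36.1% and 36.3%, against 52.5% to 57.2% for Bgn, Fmod, Prelp and Podn. Tested genes within 1 percentage point of Omd had a median log2 fold change of 0.32, close to its own 0.38, while those near Ogn had 0.31 and those near Fmod -0.07. With offsets for GC content and length, Omd was at 0.11, Ogn at 0.90, Aspn at 0.96 and Fmod at 3.04, and the same 6 family genes were called.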

How the data were processed

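RNA-seq read counts per gene symbol were deposited for 6 libraries, raw and not normalised. Per the submitters' processing notes the authors used TopHat2 2.0.8, TopHat, HTSeq and the mouse build mm9, with no role or order given. The annotation and strand setting of the counting are not known here. Rows with no gene name (0.0361% to 0.0402% of counts) were left out.

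Counts were filtered with filterByExpr, scaled by TMM (factors 0.985 to 1.02) and tested with edgeR 4.0.16 in R 4.3.3 (robust quasi-likelihood test, two-sided, Benjamini-Hochberg over all 14809 genes, threshold 0.05). On simulated data, with the spread taken from this same fit, the test was required only to recover the simulated fold changes. That does not check the calls. Standard errors are the log2 fold change over the square root of F. CPM divide counts by TMM-scaled totals, and levels per kb use the longest coding transcript of GENCODE M21, another build than mm9. Alternatives were size factors by RLE, DESeq2 1.42.0, limma-voom 3.58.1, no filter, a replicate block, GC and length offsets, and leaving out each library. Family and lists were chosen with earlier results of these data known. Named genes are the 10 members, up to 3 called genes of each list by smallest p (or the top uncalled gene), and the 5 genes most like the family, of which 1 is not reported here. St18, Agrn, Tgfb1, Tlr2, Tlr4, Bmp1, the uncalled collagens, Col5a2, Chsy3, B3galt6, Podnl1, Tsku, Optc, Epyc, Cenpp and single markers were added after their values were seen.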

Additional observations from a re-analysis of the deposited data

How the results depend on the processing

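Across all genes, 421 were called higher and 323 lower. DESeq2 gave 877 and 790, limma-voom 251 higher, and the offsets for GC content and length 277 higher. Leaving out 1 library gave 11 to 1244 higher and 12 to 866 lower, with the lowest numbers without untreated library 1 and the highest without doxycycline library 2. In the family, 6 genes were called higher, and leaving out 1 library gave 2 to 7, with 2 without untreated library 1 and 3 without untreated library 3. Leaving out doxycycline library 1 and untreated library 2 together, chosen after seeing the data, gave 0 in the family and 0 and 0 across the genome, from fewer libraries. None of the alternatives called a family gene lower. With the replicate number as a block, 5 family genes were called (Prelp was lost), and 215 genes were higher and 179 lower. The numbers are shared labels only: libraries of the same number deviated with correlations of -0.01, -0.07 and 0.02. No fold change of a family gene, or of a gene named by rule, changed sign. Only some of the genes added after their values were seen were examined for this. Among them Tlr2 (-0.44 to 0.07), Bmp1 (-0.03 to 0.17) and Optc (-0.14 to 1.03) changed sign. St18, Agrn, Tgfb1, Tlr4, Col5a2, Col1a1, Col1a2, Col3a1, Podnl1, Tsku, Cenpp and Pi16 did not. The other uncalled collagens, Chsy3, B3galt6 and the other single markers were not examined. The block also lost Adamts5, Agrn, Tgfb2, Tgfb3 and Vcan. The cause of these shifts was not tested. Kera and Epyc had too few counts for a test.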
